A study of Mus musculus with 8 samples.

Results

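Genes for the TGFβ ligands, their signalling receptors and their co-receptors were examined in SV-LECs that were left untreated or exposed to TGFβ1. The 9 genes were taken by their symbols from the 55471 genes of the count table, each symbol occurring once: the ligands Tgfb1, Tgfb2 and Tgfb3, the type I receptors Tgfbr1, Acvrl1 and Acvr1, the type II receptor Tgfbr2, and the co-receptors Tgfbr3 and Eng. SV-LECs are a mouse line derived from adventitial tissue of the mesentery and immortalized with SV40, and every library comes from this 1 line. RNA was sequenced from 4 untreated samples and from 4 samples given 10 ng/ml TGFβ1 for 72 h, and both groups were grown in serum-containing medium. The study's methods call the 4 samples of a group technical replicates, so errors and p-values cover the spread between these libraries only.

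TGFβ ligands are secreted in a latent form, and once released they bind the type II receptor TGFBR2, which recruits and phosphorylates a type I receptor. In most cells this is TGFBR1, also called ALK5, which activates SMAD2 and SMAD3. Endothelial cells are known for carrying also ACVRL1, or ALK1, which activates SMAD1 and SMAD5, and the co-receptor endoglin, encoded by Eng. Betaglycan, encoded by Tgfbr3, presents ligand and is needed most by TGFβ2, which binds TGFBR2 poorly on its own.

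Total counts were between 18952504 and 26386941 per library. Values are given as CPM, counts scaled to the library size after TMM normalization, and 3 counts in a library corresponded to 0.113 to 0.162 CPM. The 9 genes had between 85 and 8327 counts in each library, and all of them were among the 13818 genes that passed the filter on low counts. The line was checked against markers. Of 7 lymphatic endothelial markers, Prox1, Lyve1, Ccl21a and Reln had at most 3 counts in every library, while Pdpn and Flt4 were at 342 ± 19.5 and 21.6 ± 1.23 CPM in untreated cells (SD, n = 4). Of 7 general endothelial markers, Cdh5, Tie1 and Emcn had at most 3 counts in every library and Pecam1 at most 5. Several defining markers of the labelled cell type were thus near 0. The summed fibroblast and mural markers, all 7 above 3 counts in some library, were at 3303 to 4648 CPM in untreated and 5596 to 6729 CPM in TGFβ1-treated libraries. Most of the sum came from Col1a1, which is also counted among ALK5 response genes here and went from 3459 to 6057 CPM. Of the 6 fibroblast and mural markers tested, 3 were higher and 3 lower, with a median log2 fold change of -0.22. The higher ones were Col1a1, Pdgfrb (44.7 to 69.3 CPM) and Cspg4 (12.8 to 23.0 CPM). The lower ones were Dcn (312 to 83.0 CPM), Pdgfra (160.0 to 57.8 CPM) and Thy1 (89.2 to 42.4 CPM). The endothelial sum went from between 11.5 and 13.1 to between 22.2 and 24.1 CPM. Most of it came from Kdr, which went from 11.6 to 22.1 CPM, while Tek did not pass the test (0.659 and 0.569 CPM). The lymphatic sum went from between 344 and 382 to between 337 and 348 CPM. Most of it came from Pdpn, which went from 342 to 313 CPM (log2 fold change -0.13). Flt4, the other lymphatic marker tested, went the other way, from 21.6 to 29.3 CPM (0.44). The epithelial sum went from between 0.304 and 1.14 to between 2.36 and 4.11 CPM. Of 3 leukocyte markers, Ptprc and Cd3e had at most 1 count in every library, and the sum, from Cd68, went from between 5.83 and 7.82 to between 14.9 and 16.9 CPM. In bulk RNA, more cells of a type and more RNA per cell cannot be told apart, and the part of these shifts in the results was not tested.

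After TGFβ1, Acvrl1, Tgfb3 and Eng showed the largest rises among the 9 genes, 3.04-fold, 2.35-fold and 2.31-fold. Acvr1 and Tgfbr2 rose 1.54-fold and 1.45-fold, and Tgfb1 and Tgfbr1 rose 1.24-fold and 1.12-fold. Tgfbr3 fell, and Tgfb2 did not pass the test. At a false discovery rate (FDR, Benjamini-Hochberg) below 0.05 in edgeR's likelihood ratio test, 7 of the 9 genes were thus higher and 1 was lower. In this comparison 75.6% of all genes tested passed the same threshold, with 37.6% higher and 38% lower, so passing it does not set the 9 genes apart. A log2 fold change above 1 together with the FDR was reached by 10.9% of all genes tested and by 3 of the 9, and a log2 fold change below -1 by 6.56% of all genes tested and by 0 of the 9. The median log2 fold change was 0.54 over the 9 genes and -0.01 over all genes tested. In 6 of the 9 genes all libraries of one group lay on one side of all libraries of the other, against 69.8% of all genes tested. The treated libraries lay above in 5 of the 9 genes, against 34.7% of all genes tested, and below in 1, against 35.1%.

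**Figure D1:**
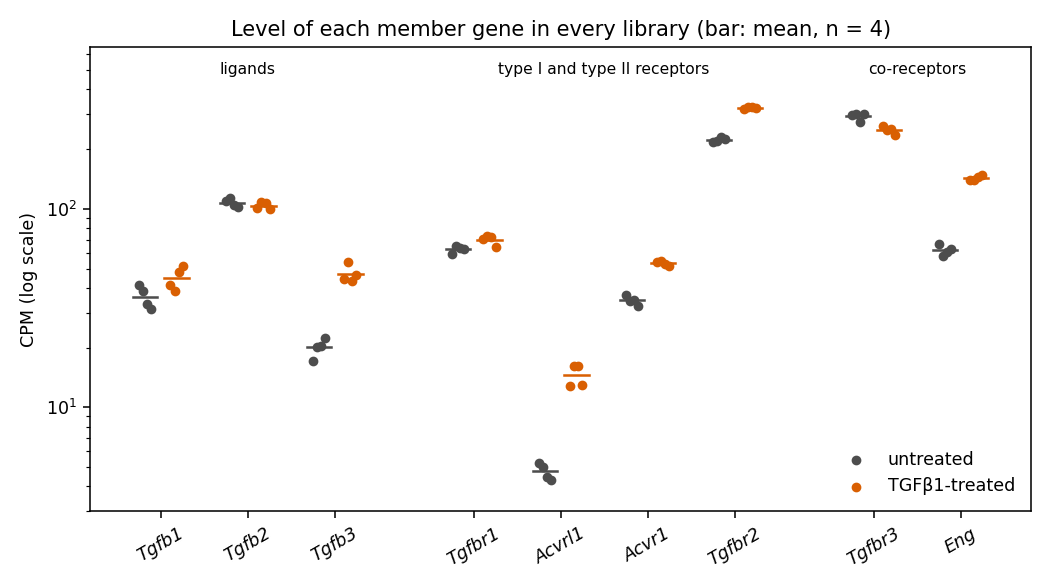
CPM on a log axis for the 9 genes, with 1 point for each of the 8 libraries, untreated in grey and TGFβ1-treated in orange, and a bar at each group's mean. The groups are apart in Tgfb3, Acvrl1, Acvr1, Tgfbr2, Tgfbr3 and Eng and overlap in Tgfb1, Tgfb2 and Tgfbr1.

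**Figure D2:**
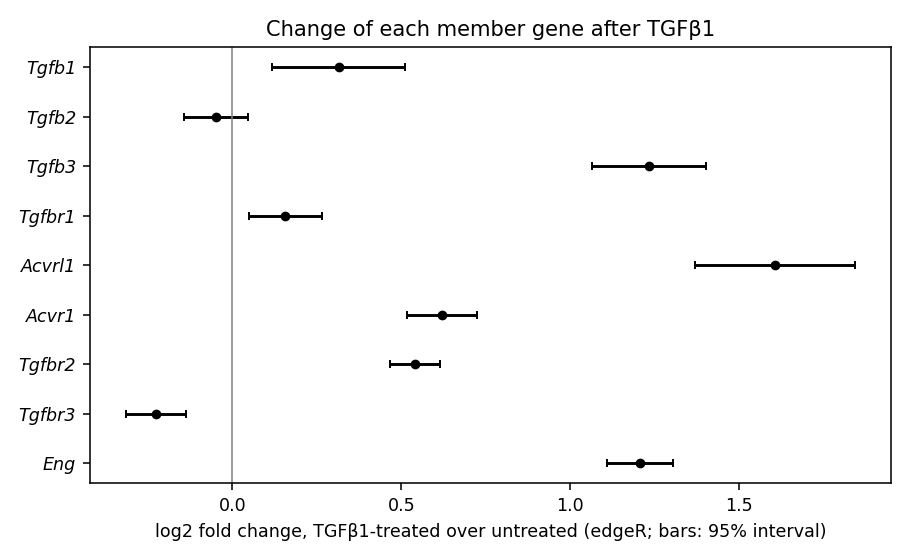
Log2 fold change of each of the 9 genes in TGFβ1-treated over untreated libraries, as estimated by edgeR, with the 95% interval as a bar. Acvrl1 lies farthest to the right at 1.61, the interval of Tgfb2 includes 0, and Tgfbr3 lies below 0 at -0.23.

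Among the ligands, Tgfb3 showed the clearest change. Tgfb3, the isoform known for its part in palate fusion, lies on chromosome 12 of GRCm38 from 86056745 to 86079041. Its level was 17.2, 20.2, 20.3 and 22.5 CPM in the untreated libraries and 44.4, 54.0, 43.4 and 46.3 CPM in the TGFβ1-treated ones. The lowest treated library was 1.93 times as high as the highest untreated one. The log2 fold change was 1.23 (standard error 0.086, FDR = 3.06e-45, edgeR's likelihood ratio test). A larger log2 fold change was found for 8.06% of all genes tested. On the opposite strand, 5.56% of its stretches of 75 bases, the read length, are shared with Gm48008, which had at most 2 counts in any library.

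Tgfb1 encodes the cytokine that was added as protein, so its reads come from the cells' own gene, on chromosome 7 from 25687002 to 25705077. Tgfb1 was at 41.4, 38.3, 33.1 and 31.3 CPM in untreated libraries 1 to 4 and at 41.2, 38.5, 48.0 and 51.5 CPM in TGFβ1-treated libraries 1 to 4. The groups overlapped, since untreated library 1 lay above treated libraries 1 and 2. On the log2 scale Tgfb1 was 0.31 ± 0.10 higher (estimate ± standard error, edgeR's likelihood ratio test, FDR = 0.00287). An exact two-sided permutation test on the log2 CPM of this single gene gave p = 0.114, and 4 libraries against 4 allow no p below 0.0286. Its coefficient of variation was 12.9% in untreated and 13.3% in treated libraries, the widest spread of the 9 genes in both groups.

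The libraries of a group also differed in how counts followed the GC content of transcripts. The slope of a library's deviations from its group mean, on the log2 scale per 10 percentage points of GC, went from -0.057 to 0.067 in untreated and from -0.046 to 0.045 in TGFβ1-treated libraries. Within both groups the order of the libraries by this slope was the order by Tgfb1. Tgfb1 has 52.5% GC, and 35.2% of genes had a higher GC content. Other members with at least as much GC did not share this order in both groups. Eng (57.4% GC) followed it in neither group, and Acvrl1 (56.6% GC) followed it in untreated libraries only. Tgfb3 (53.0% GC) ran in the reverse order in untreated libraries. With these slopes as a covariate, the log2 fold change of Tgfb1 stayed at 0.31 and its FDR was 5.52e-11 (edgeR's likelihood ratio test). Without them the FDR was 0.00287. The slopes were taken from the same libraries, and whether GC content caused the spread of Tgfb1 was not tested.

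Tgfb2, the isoform with the highest level of the 3 in untreated cells, lies on chromosome 1 from 186622792 to 186705989. Its level was 109, 113, 104 and 103 CPM in the untreated and 101, 108, 107 and 99.9 CPM in the TGFβ1-treated libraries. The groups overlapped. Its log2 fold change was -0.05, with a 95% interval from -0.14 to 0.05 (FDR = 0.359 from edgeR's likelihood ratio test). With scaling to total counts alone, without composition factors, which moved the median of all genes by -0.067, the log2 fold change was -0.12 and the gene passed as lower (FDR = 0.0220 from edgeR).

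To compare levels between genes, CPM were divided by the length of a gene's merged exons in kilobases. On this scale of CPM per kilobase, Tgfb2 made up 58.6% ± 0.476 of the summed level of the 3 ligand genes in untreated libraries and 44.0% ± 1.49 in TGFβ1-treated ones (SD, n = 4). The share of Tgfb3 was 18.8% ± 2.50 and 34.1% ± 2.67, and that of Tgfb1 was 22.6% ± 2.29 and 21.8% ± 2.92. The log2 ratio of Tgfb1 to the sum of Tgfb2 and Tgfb3 was -1.78 ± 0.19 in untreated and -1.85 ± 0.25 in treated libraries, a difference of -0.07 that was smaller than the spread within either group (exact two-sided permutation test, p = 0.686). The share of Tgfb1 depends on the length used. With the longest annotated transcript in place of merged exons it was 34.2% in untreated and 33.7% in treated libraries.

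The type I receptors are kinases that pass the signal to the SMADs. Acvrl1 (ALK1) lies on chromosome 15 from 101128522 to 101145336. It was at 5.25, 5.03, 4.45 and 4.31 CPM in untreated and at 12.9, 16.2, 16.1 and 13.0 CPM in TGFβ1-treated libraries. The untreated values rest on 85 to 134 counts and the treated ones on 238 to 335 counts, the lowest of the 9 genes, yet the lowest treated library was 2.45 times as high as the highest untreated one. The log2 fold change was 1.61 (standard error 0.12, FDR = 8.70e-41, edgeR's likelihood ratio test). A larger log2 fold change was found for 5.43% of all genes tested.

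Tgfbr1 (ALK5), on chromosome 4 from 47353222 to 47414931, showed the smallest rise. Its level was 59.4, 64.9, 63.7 and 62.6 CPM in untreated and 70.3, 73.0, 72.4 and 64.3 CPM in TGFβ1-treated libraries. Treated library 4 lay below untreated library 2, and the other 3 treated libraries lay above all untreated ones. On the log2 scale Tgfbr1 was 0.16 ± 0.055 higher (estimate ± standard error, edgeR's likelihood ratio test, FDR = 0.00582). The exact two-sided permutation test on its log2 CPM gave p = 0.0571. The call was lost with scaling to total counts alone, where the difference was 0.09 (edgeR, FDR = 0.122), and without the filter on low counts (log2 fold change 0.13, FDR = 0.0571 from edgeR).

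Acvr1 (ALK2), a type I receptor best known for BMP signalling, lies on chromosome 2 from 58388644 to 58567157. It was at 36.8, 34.3, 34.7 and 32.5 CPM in untreated and at 53.7, 54.5, 52.9 and 51.6 CPM in TGFβ1-treated libraries. The groups did not overlap, and the treated libraries differed little among themselves. On the log2 scale Acvr1 was 0.62 ± 0.053 higher (estimate ± standard error, edgeR's likelihood ratio test, FDR = 7.88e-31).

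Per kilobase, Tgfbr1 was 8.57 times as high as Acvrl1 in untreated and 3.15 times as high in TGFβ1-treated libraries. The log2 ratio was 2.88, 3.07, 3.22 and 3.24 in the untreated and 1.83, 1.56, 1.55 and 1.69 in the treated libraries. It differed by -1.44 between the groups, far more than its spread of 0.17 and 0.13 (SD, n = 4, exact two-sided permutation test, p = 0.0286, adjusted p = 0.0381 over 4 ratios). A ratio within a library does not depend on how libraries are scaled. Among the 3 type I receptor genes, the share of Acvrl1 went from 6.25% ± 0.515 to 13.5% ± 1.21 of the summed level per kilobase, that of Tgfbr1 from 53.7% ± 2.06 to 42.6% ± 0.641 and that of Acvr1 from 40.1% ± 1.68 to 43.9% ± 1.36 (SD, n = 4). Acvrl1 thus remained the least abundant of the 3 after treatment. The shares of the other type I receptors depend on the length used. With the longest transcript, Tgfbr1 was at 48.0% in untreated and 37.6% in treated libraries, and Acvr1 at 46.3% and 50.0%.

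Tgfbr2, the type II receptor that binds the ligand first, lies on chromosome 9 from 116084293 to 116175360. It was at 217, 218, 229.5 and 224 CPM in untreated and at 317, 327, 324 and 323 CPM in TGFβ1-treated libraries. The groups were far apart compared with their spread. On the log2 scale Tgfbr2 was 0.54 ± 0.038 higher (estimate ± standard error, edgeR's likelihood ratio test, FDR = 4.44e-45). A larger log2 fold change was found for 20.6% of all genes tested. The log2 ratio of Tgfbr1 to Tgfbr2 per kilobase was -1.50 ± 0.052 in untreated and -1.88 ± 0.082 in treated libraries (SD, n = 4, exact two-sided permutation test, p = 0.0286, adjusted p = 0.0381 over 4 ratios).

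**Figure D3:**
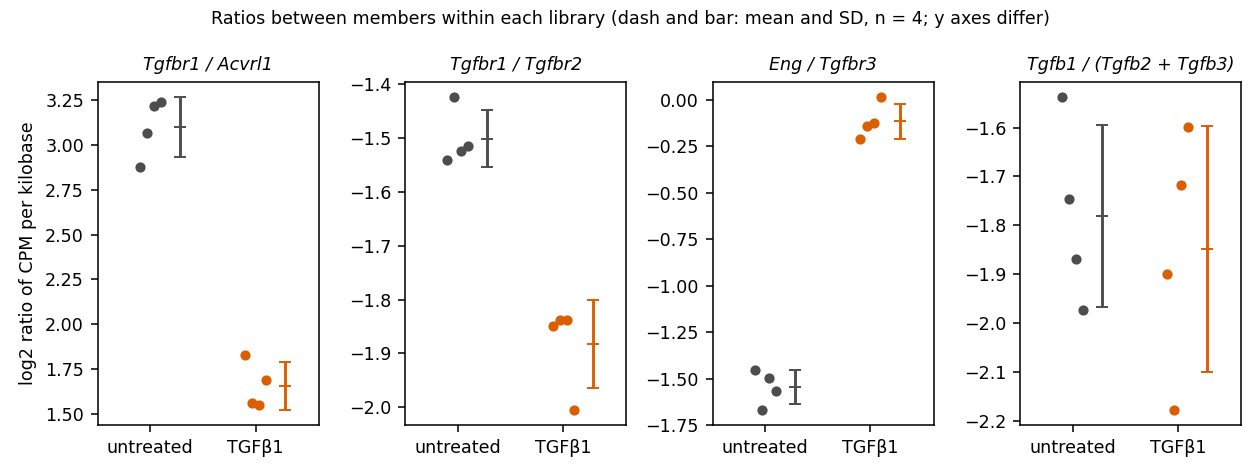
Log2 ratios between members, computed within each library from CPM per kilobase, with 1 point per library and the mean and SD of 4 libraries beside the points. The vertical axes differ between panels. The groups do not overlap for Tgfbr1 to Acvrl1, Tgfbr1 to Tgfbr2 and Eng to Tgfbr3, and they overlap for Tgfb1 to the sum of Tgfb2 and Tgfb3.

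The co-receptors moved in opposite directions. Eng, which lies on chromosome 2 from 32646595 to 32682669, had the largest likelihood ratio statistic of the 9 genes, 573. It was at 66.8, 58.1, 60.3 and 62.6 CPM in untreated and at 139, 140.1, 144 and 148 CPM in TGFβ1-treated libraries. The lowest treated library was 2.09 times as high as the highest untreated one. On the log2 scale Eng was 1.21 ± 0.050 higher (estimate ± standard error, edgeR's likelihood ratio test, FDR = 4.63e-125). Of its exons, 61 bases overlap Fpgs on the opposite strand, which had 422 to 665 counts per library. Whether the counting used strand is not given in the sources used here.

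Tgfbr3 (betaglycan), on chromosome 5 from 107106570 to 107289629, was the gene of the 9 that fell. It was at 296, 298, 275 and 299 CPM in untreated and at 261, 249.7, 253 and 237 CPM in TGFβ1-treated libraries. The highest treated library lay just below untreated library 3, which stood apart from the other 3 untreated libraries. The log2 fold change was -0.23 (standard error 0.045, FDR = 1.32e-06, edgeR's likelihood ratio test), and without untreated library 3 it was -0.25. The log2 ratio of Eng to Tgfbr3 was -1.55 ± 0.092 in untreated and -0.12 ± 0.094 in treated libraries (SD, n = 4, exact two-sided permutation test, p = 0.0286, adjusted p = 0.0381 over 4 ratios). As a share of the summed level of both co-receptor genes per kilobase, Eng went from 25.5% ± 1.21 to 48.0% ± 1.62.

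In untreated cells the order of levels per kilobase was Tgfbr3 (44.6), Tgfbr2 (27.1), Tgfb2 (18.5), Eng (15.3), Tgfbr1 (9.59), Acvr1 (7.16), Tgfb1 (7.15), Tgfb3 (5.92) and Acvrl1 (1.12). With merged exons as length, the libraries of Acvr1 and Tgfb1 overlapped, as did those of Tgfb1 and Tgfb3, and the other neighbours did not. The untreated order depends on the length used. With the longest transcript, the mean level of Tgfb1 in untreated cells lay above those of Tgfbr1 and Acvr1. In TGFβ1-treated cells the order was Tgfbr2 (39.5), Tgfbr3 (38.2), Eng (35.3), Tgfb2 (17.9), Tgfb3 (13.9), Acvr1 (11.0), Tgfbr1 (10.7), Tgfb1 (8.88) and Acvrl1 (3.41). Here Tgfbr2 overlapped with Tgfbr3, Tgfbr3 with Eng, Acvr1 with Tgfbr1, and Tgfbr1 with Tgfb1. With the longest transcript as length, Tgfb1 was at 17.4 CPM per kilobase after treatment, and Eng, at 41.7, was the highest of the 9.

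Promoter sequences in RefSeq on GRCm38.p6 were matched for 6 of the 9 genes, Tgfb1, Tgfb2, Tgfbr1, Tgfbr2, Acvr1 and Eng. The 250 bases before the start are shown for Eng and Tgfbr2, which rose, and for Tgfb2, which did not pass the test, because these 3 hold the short SMAD-binding letters CAGAC at their main start. Capitals mark CAGAC or, for the other strand, GTCTG.
Eng, chr2:32646345-32646594, plus strand: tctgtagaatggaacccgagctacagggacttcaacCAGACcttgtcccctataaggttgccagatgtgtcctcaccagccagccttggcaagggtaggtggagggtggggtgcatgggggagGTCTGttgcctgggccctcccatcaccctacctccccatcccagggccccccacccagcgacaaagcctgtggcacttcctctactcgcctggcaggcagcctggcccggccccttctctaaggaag
Tgfbr2, chr9:116175364-116175613, minus strand: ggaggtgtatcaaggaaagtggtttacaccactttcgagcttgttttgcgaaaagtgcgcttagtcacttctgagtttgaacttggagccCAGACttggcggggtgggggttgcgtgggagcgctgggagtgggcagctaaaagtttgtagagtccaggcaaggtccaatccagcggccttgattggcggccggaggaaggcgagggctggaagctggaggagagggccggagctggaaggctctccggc
Tgfb2, chr1:186705990-186706239, minus strand: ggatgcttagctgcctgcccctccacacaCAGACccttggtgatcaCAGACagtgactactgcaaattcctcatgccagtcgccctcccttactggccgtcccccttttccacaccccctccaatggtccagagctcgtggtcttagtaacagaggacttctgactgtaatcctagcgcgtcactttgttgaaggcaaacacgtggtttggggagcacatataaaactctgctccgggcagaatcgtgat

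In these windows CAGAC was found in Eng 214 bases before the start and as GTCTG 127 bases before it, in Tgfbr2 160 bases before the start, and in Tgfb2 221 and 204 bases before it. The windows of Tgfb1 and Acvr1 and the main one of Tgfbr1 held none, and a second annotated start of Tgfbr1 held 1. Of 32851 promoter windows of this length, 42.2% held CAGAC on either strand. The palindrome GTCTAGAC, in 0.167% of windows, and the AP-1 letters TGANTCA, in 6.75%, were in none of the members' windows, and GGCGCC, in 9.59%, was in the main window of Tgfbr1 alone among them. The letters were therefore present both in genes that rose and in Tgfb2, and they are common in promoters.

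The rest of the pathway was described with 9 lists of 84 genes, of which 74 were tested, 43 were higher and 24 lower. Each of the list counts that follow stands against 37.6% higher and 38% lower among all genes tested, with 75.6% called in either direction, and nothing particular to a list is read from its count. Genes that answer ALK5 signalling were mostly higher, with 10 of 11 tested genes higher, 0 lower and a median log2 fold change of 0.99. Ltbp2, which encodes a latent TGFβ binding protein, and Ccn2, which encodes a matrix-associated growth factor, rose by log2 fold changes of 2.63 and 2.06, Skil rose least, by 0.63, and Col1a2 did not pass the test (-0.08). Of 6 tested genes that answer ALK1 and BMP signalling, 1 was higher and 4 were lower, with a median of -0.65. Smad9, Smad6 and Id3 fell, with log2 fold changes of -1.73, -1.04 and -0.94. Hey2 rose by 2.99 from 0.205 ± 0.066 to 1.74 ± 0.374 CPM (SD, n = 4). It rested on 3 to 44 counts per library. In untreated libraries Hey2 was at 0.145 to 0.263 CPM, near the floor of 3 counts, so the size of its rise is uncertain. Id1 was the fourth of the lower genes (-0.37, FDR = 0.0420 from edgeR), with overlapping groups. The count of lower genes was 3 with the quasi-likelihood test, DESeq2, the replicate block, an FDR of 0.01 and the filter at 1 CPM, and between 3 and 5 when a library was left out.

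Of 15 feedback inhibitors, proteins that act against the receptors or SMADs, 10 were higher and 4 lower, with a median of 0.30, where 75.6% of all genes tested were called. Pmepa1, which encodes a protein that holds back SMAD2 and SMAD3, rose by a log2 fold change of 1.85, the ubiquitin ligase gene Smurf1 by 1.08, and Smad7, the inhibitory SMAD that acts on TGFBR1, by 0.89. Skil, named above, encodes the repressor SnoN. Smad6, the inhibitory SMAD of the BMP arm, fell, as did Tgif2 (-0.65), Nedd4l (-0.48) and Smurf2 (-0.19). Strap did not pass the test (-0.04). Of 6 SMAD transducers, Smad3 (0.71) and Smad5 (0.16) were higher, Smad4 (-0.43) and Smad9 were lower, and Smad1 and Smad2 did not pass the test (0.04 and 0.00). Of 4 deubiquitinases that stabilise the receptors, Usp4 and Usp15 were higher by 0.15 and 0.10 and Usp11 and Uchl5 lower by log2 fold changes of -0.51 and -0.49.

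Of 12 tested genes for latency and activation of the ligands, 10 were higher and 2 lower (all genes tested, 37.6% and 38%), with a median of 0.75. Ltbp2 rose most. Lrrc32, which encodes the cell surface anchor GARP, rose by 2.56, the activator gene Thbs1 by 2.39 and the integrin subunit gene Itgb3 by 2.10, while Itgb8 and Ltbp4 fell (-2.97 and -1.18). Of 9 neighbouring receptors and ligands of the family, 5 were higher and 4 lower, with a median of 0.59. The BMP type II receptor gene Bmpr2 rose by 0.88, Bmpr1b by 1.61 and the activin subunit gene Inhbb by 2.04, and Acvr1b, the activin receptor ALK4, and Acvr2b fell (-0.67 and -0.99). Gdf2, which encodes BMP9, a high-affinity ligand of ALK1, rose by 1.53 but rested on 7 to 32 counts per library. Bmpr1b and Acvr2b also had few counts, 14 to 64 and 15 to 58 per library.

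Of 7 accessory and decoy receptors tested, 5 were higher and 2 lower, with a median of 0.41. Nrp1, which encodes neuropilin-1, rose by 3.00 and Cd109, which encodes a TGFβ co-receptor that limits signalling, by 1.16, while Rgma (-0.94) and the decoy receptor gene Bambi (-0.42) fell. Of 10 genes for receptor trafficking and shedding, 2 were higher and 6 lower, with a median of -0.28. Mmp14, which encodes a membrane protease known to release betaglycan and endoglin from the cell surface, rose by 1.17. Snx25 (-0.87), the caveolin gene Cav1 (-0.87) and Zfyve9 (-0.67), which encodes the SMAD anchor SARA, fell.

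**Figure D4:**
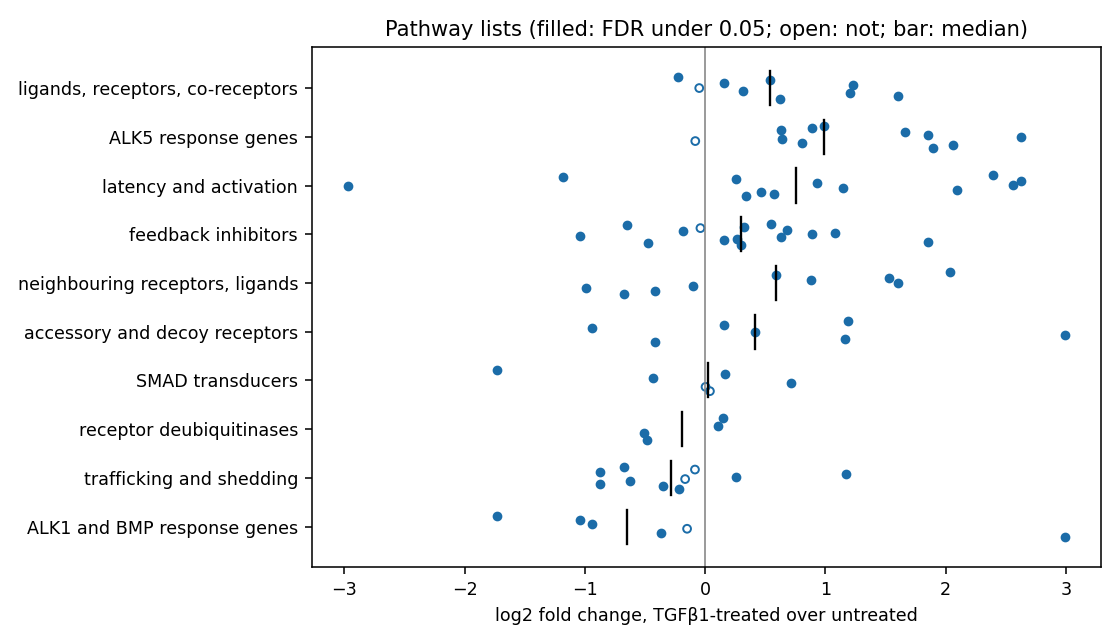
Log2 fold change in TGFβ1-treated over untreated libraries for each tested gene of the 9 members and the 9 pathway lists, with filled points for an FDR under 0.05, open points for the rest, and a bar at each list's median. Medians go from 0.99 in ALK5 response genes to -0.65 in ALK1 and BMP response genes.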

How the data were processed

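Stranded poly(A) libraries of 8 SV-LEC samples were sequenced with single-end reads of 75 bases. The authors deposited raw counts of reads per gene on GRCm38, without normalization. The submitters' processing notes name bcl2fastq 2.20.0.422, STAR 2.7.3a and featureCounts 1.5.1. The annotation release and the strand setting are not given in the sources used here. The members and the gene lists were chosen with earlier results of these data known.

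The whole table was fitted in edgeR 4.0.16 under R 4.3.3. Genes were filtered with filterByExpr, libraries normalized by TMM, and groups compared with glmFit and glmLRT, the test the study's methods name, with Benjamini-Hochberg FDRs over 13818 genes. Standard errors came from the fitted model. The script was tested on simulated data. GENCODE M21 gave positions, exon lengths and GC content, and promoters came from RefSeq on GRCm38.p6. Ratios of CPM per kilobase, with 0.5 added to each count, were tested by exact permutation. The text names all 9 members, of each list the called genes with the highest and lowest log2 fold change and those whose role is needed to read the members, and the 3 genes nearest in pattern to the members with the highest and lowest change. Libraries of the same group were set against each other in pairs, and none agreed within sampling noise, with chi-square per degree of freedom between 2.37 and 7.84. Floors of 3 counts cover counting error only. A single one of the listed genes is not reported here by name.

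Alternatives were the quasi-likelihood test, DESeq2 1.42.0, its size factors in edgeR, total counts, 2 other filters, an FDR of 0.01, a prior count of 2, a replicate block, leaving out each library, a pseudocount of 2, the longest transcript as length and, added after seeing the data, library GC slopes as a covariate. These slopes sum to about 0 within each group, so that by construction they could not move a difference between the groups. They could still move FDRs, since they take up spread within the groups.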

Additional observations from a re-analysis of the deposited data

Results flagged for a closer look

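The values of the 9 genes and of the 4 ratios were screened in each group for a library far from the other 3, 26 groups of 4 values in all, and chance would flag about 1 in 20. In untreated library 3, Tgfbr3 was at 275 CPM, below the 296 to 299 CPM of the other 3 untreated libraries. In TGFβ1-treated library 4, the log2 ratio of Tgfbr1 to Tgfbr2 was -2.004, against -1.85 to -1.84 in the other 3 treated libraries. Tgfbr1 was at 64.3 CPM there, the lowest of the treated libraries.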

How the results depend on the processing

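Scaling by total counts gave 6 higher and 2 lower of the 9 genes, with Tgfbr1 not called and Tgfb2 lower. Without the filter on low counts 6 were higher and 1 was lower, with Tgfbr1 not called. Every other alternative gave 7 higher and 1 lower again. With the GC slopes as a covariate, 5421 genes were higher and 5479 lower over all genes, against 5198 and 5251 in the main fit. With each library left out, Tgfb1 was between 0.24 and 0.38 (highest FDR = 0.0223 from edgeR) and Tgfbr1 between 0.13 and 0.20 (highest FDR = 0.0325 from edgeR). No pairing by replicate number was seen. The deviations of same-numbered libraries correlated between -0.19 and -0.03, and 0 of 4 untreated libraries correlated best with their own number. With only 4 numbers compared, this check cannot establish that the libraries were unpaired. With the replicate block 7 of the 9 genes were higher and 1 was lower, and over all genes 5075 were higher and 5077 lower. Differences of the ratios are unchanged by the block, but 4 pairs cannot bring their exact p under 0.05. The difference for Tgfb1 to the other ligands was between -0.15 and 0.04 when a library was left out and changed sign without untreated library 1 (0.01) and without treated library 2 (0.043). With the longest transcript as length, the untreated log2 ratios were -0.95 for Tgfb1 to the other ligands, -1.34 for Tgfbr1 to Tgfbr2 and -1.41 for Eng to Tgfbr3. Of the lists, the receptor deubiquitinases had 0 higher genes with total counts, 1 with no filter, 1 with the replicate block, 1 at an FDR of 0.01 and between 1 and 2 when a library was left out, which was 1 without untreated libraries 1, 2 and 4 and without treated libraries 2 and 4. The SMAD transducers had 1 higher gene with total counts. The ALK5 response genes had 1 lower gene with total counts and between 0 and 1 when a library was left out, which was 1 without untreated library 4. The ALK1 and BMP response genes had 2 higher genes without the filter on low counts. The cause of these shifts was not tested. At 85 to 335 counts, Acvrl1 was the gene with the least depth.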

Other observations

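The genes whose log2 CPM followed Acvrl1 most closely over the 8 libraries were Colq, Cdkl3 and Qsox1, with Pearson's r of 0.998, 0.997 and 0.997, and 92 genes had an r above 0.99. For Tgfbr3 they were Gpi1, Zfyve19 and Slc17a5, with r of 0.987, 0.983 and 0.981. The points are the same 8 libraries in 2 groups, so the values are a description with no test. The groups are far apart in Acvrl1 and close in Tgfbr3, where the lowest untreated library was 1.05 times as high as the highest treated one.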
